A study of Mus musculus with 8 samples.

Results

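The core circadian clock genes were examined in the retinal pigment epithelium (RPE) of mice that lack *Bbs8*. The 10 genes were chosen by name for their known place in the clock, but with earlier results of these data known. They were the activators *Arntl*, *Clock* and *Npas2* and the period genes *Per1*, *Per2* and *Per3*. The REV-ERB genes *Nr1d1* and *Nr1d2* and the output genes *Dbp* and *Ciart* completed the list. All 10 were among the 31053 genes in the count tables, and 9 of them had enough reads to be tested, with *Npas2* as the exception. RNA was taken from RPE at postnatal day 29 (P29) from 4 *Bbs8*+/+ and 4 *Bbs8*-/- mice, 1 library per animal, and sequenced with QuantSeq, which reads the 3′ end of each transcript. The mice were C57/Bl6, untreated and kept in a light and dark cycle, the controls were littermates, and gender was not determined. *Bbs8*-/- animals carry the germline knockout in every cell, and *Bbs8*, listed here under its symbol *Ttc8*, encodes a subunit of the BBSome, a complex that moves proteins into and out of cilia. The RPE sheet was peeled from the eye after trypsin treatment, so other cells could be carried along. The hour at which the animals were killed is not given in the sources used here.

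The clock is a feedback loop of transcription. BMAL1, the product of *Arntl*, pairs with CLOCK or NPAS2 and binds E-boxes in the promoters of the *Per*, *Cry*, *Nr1d1*, *Nr1d2*, *Dbp* and *Ciart* genes, and the PER and CRY proteins later block that pair. REV-ERB proteins repress *Arntl*, *Clock* and *Npas2*, so that *Arntl* and *Npas2* transcripts peak when those of *Nr1d1* and *Dbp* are low, whereas *Clock* transcripts change little through the day in many tissues. In the RPE, the shedding and uptake of photoreceptor outer segments follow a daily rhythm, and in the retina the clock sets the rhythms of dopamine and melatonin.

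The loop is known to work through short elements in the promoters, and some of the 10 genes hold such letters close to their start. RefSeq windows on GRCm38.p6, from 250 bases before to 50 bases after each transcript start, were available for 9 of the 10 genes, *Per2* excepted. The first lines below show the bases just before the start of *Ciart*, *Per1* and *Per3*, which held the motifs searched for, and of *Clock*, the only gene of the 10 whose transcript passed the test, which held none. Capitals mark the E-box CACGTG in *Ciart* and *Per1* and the D-box in *Per1* (TTATGCAA) and *Per3* (TTATGTAA). The last line is a stretch of *Arntl* just after its start, with capitals for the core of the element bound by ROR and REV-ERB receptors, TAGGTCA.
Ciart, chr3:95882252-95882478, minus strand: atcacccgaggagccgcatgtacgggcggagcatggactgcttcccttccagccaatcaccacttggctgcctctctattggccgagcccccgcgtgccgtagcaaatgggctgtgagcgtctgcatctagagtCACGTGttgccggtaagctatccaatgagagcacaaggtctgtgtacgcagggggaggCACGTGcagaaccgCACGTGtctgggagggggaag
Per1, chr11:69098699-69098947, plus strand: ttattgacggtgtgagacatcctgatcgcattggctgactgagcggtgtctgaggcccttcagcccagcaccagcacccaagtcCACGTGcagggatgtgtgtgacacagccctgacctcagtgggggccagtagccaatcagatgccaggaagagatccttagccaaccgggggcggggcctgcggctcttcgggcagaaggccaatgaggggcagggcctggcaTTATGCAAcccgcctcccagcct
Per3, chr4:151044666-151044915, minus strand: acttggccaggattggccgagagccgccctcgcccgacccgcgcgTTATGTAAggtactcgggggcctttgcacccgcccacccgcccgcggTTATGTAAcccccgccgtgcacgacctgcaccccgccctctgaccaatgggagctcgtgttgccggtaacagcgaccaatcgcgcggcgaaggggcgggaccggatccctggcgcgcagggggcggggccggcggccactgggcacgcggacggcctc
Clock, chr5:76304793-76305042, minus strand: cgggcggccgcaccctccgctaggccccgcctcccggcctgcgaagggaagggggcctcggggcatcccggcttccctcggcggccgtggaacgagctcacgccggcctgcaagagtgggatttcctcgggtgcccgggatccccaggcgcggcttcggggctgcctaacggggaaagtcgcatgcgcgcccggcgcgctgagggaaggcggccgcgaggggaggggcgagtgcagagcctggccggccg
Arntl, chr7:113207530-113207559, plus strand: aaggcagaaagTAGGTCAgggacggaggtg

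Motifs were searched on both strands of the windows. *Ciart* held 3 E-boxes, which began 116, 58 and 44 bases before the start, against an E-box in 7.15% of the 32851 windows of all genes. *Per1* held 1 E-box and 1 D-box, and *Per3* held 2 D-boxes, against a D-box (TTATGTAA, TTATGCAA or TTACGTAA) in 1.78% of windows. *Nr1d1* held 1 copy of the related element CACGTT, found in 4.68% of windows. The receptor core, TAGGTCA or TGGGTCA, was found in *Arntl* alone among the 9 genes and in 6.45% of windows. No window of *Clock*, *Npas2*, *Nr1d2* or *Dbp* held any of these letters, nor the cyclic AMP response element TGACGTCA, which was present in 1.79% of windows. These matches describe the sequence only and say nothing of binding in these samples.

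The libraries held between 2389835 and 3093428 reads counted on genes. Levels are given as CPM, counts per 1000000 reads counted on genes, with the library totals scaled by the TMM method. The test for each gene was the quasi-likelihood test of edgeR. A gene was said to rise or fall where its Benjamini-Hochberg adjusted p was below 0.05. *Ttc8* (chr12:98920574-98983238) lay between 35.5 and 58.9 CPM in the *Bbs8*+/+ libraries and between 1.79 and 6.16 CPM in the *Bbs8*-/- libraries, as their labels require, with a log2 fold change of -3.34 (SE 0.294, adjusted p = 2.47e-11). Of the 12889 genes tested, 704 (5.46%) rose and 877 (6.80%) fell in *Bbs8*-/- RPE, together 12.3%. With library size alone as the scaling, 1005 rose and 657 fell. For 16.0% of genes, all libraries of one genotype lay above all those of the other.

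RPE markers were abundant in every library. Their summed level was 40736 to 41757 CPM in *Bbs8*+/+ and 49050 to 52820 CPM in *Bbs8*-/- libraries. Of the 18 markers 5 rose, among them the thyroxine carrier *Ttr* (0.60), and 4 fell, among them the visual cycle isomerase *Rpe65* (-0.24). *Ttr* made up much of the sum, with means of 20932.1 CPM in *Bbs8*+/+ and 31747.5 CPM in *Bbs8*-/- libraries. Over the 18 markers, 7 estimates were above 0 and 11 below, with a median of -0.04. The higher sum thus does not stand for most RPE markers. Markers of other cells moved with genotype as well. For comparison with the counts in each list, 5.46% of all genes rose and 6.80% fell. The 29 rod and cone markers summed to 66139 to 70324 CPM in *Bbs8*+/+ and to 28218 to 28757 CPM in *Bbs8*-/- libraries, with 19 lower, all of them rod genes or genes shared by rods and cones, and 6 higher, all of them cone genes. All 19 lens markers tested, of 20 listed, were lower, with sums of 3526 to 3709 CPM against 483 to 529 CPM. Of the 8 red cell markers tested, of 10 listed, 5 were lower, and the sums were 5210 to 5759 CPM against 2041 to 2288 CPM. Of 10 Müller cell and astrocyte markers 5 rose and none fell (0 lower at an unadjusted p below 0.05 and by DESeq2), with sums of 11133 to 12248 CPM against 14849 to 15610 CPM. Inner retinal neuron markers (1 higher and 1 lower of 14 tested) summed to 686 to 744 CPM against 646 to 760 CPM, and choroid markers (1 higher and 2 lower of 13) to 1168 to 1533 CPM against 1115 to 1341 CPM. None of the 9 microglia and macrophage markers tested, of 10 listed, passed (0 higher and 1 lower at an unadjusted p below 0.05, none by DESeq2), and they summed to 352 to 453 CPM against 319 to 364 CPM. No marker that could be matched in these lists was at 0 in all 8 libraries. In such bulk samples, fewer cells of a type and less RNA per cell cannot be told apart, and the part of these cells in the results on clock genes was not tested.

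Among the activators, *Clock* rose and *Arntl* did not pass the test. *Clock* (ENSMUSG00000029238, chr5:76209868-76304792), which encodes the partner of BMAL1, was at 66.4, 78.3, 61.3 and 75.8 CPM in the *Bbs8*+/+ libraries and at 110.4, 96.7, 87.2 and 98.2 CPM in the *Bbs8*-/- libraries. Every *Bbs8*-/- library lay above every *Bbs8*+/+ library. The means were 70.5 ± 7.98 CPM and 98.1 ± 9.54 CPM (SD, n = 4), a fold change of 1.39 (95% interval 1.15 to 1.69) and a log2 fold change of 0.48 (SE 0.137, edgeR adjusted p = 0.0152). The exact permutation test on the log2 CPM values (prior count of 2), two-sided, gave p = 0.0286, the smallest that 4 against 4 libraries can give. The call was lost without *Bbs8*+/+ replicate 3 (log2 fold change 0.41, edgeR adjusted p = 0.0684) and without *Bbs8*-/- replicate 1 (0.42, adjusted p = 0.0571).

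*Arntl* (ENSMUSG00000055116, chr7:113207465-113314126), which encodes BMAL1, was at 10.8, 15.3, 15.5 and 22.7 CPM in *Bbs8*+/+ and at 17.7, 23.6, 26.0 and 14.7 CPM in *Bbs8*-/- libraries. The genotypes overlapped, with the highest *Bbs8*+/+ library above 2 of the 4 *Bbs8*-/- libraries. The log2 fold change was 0.35 (95% interval -0.22 to 0.92, edgeR adjusted p = 0.513), so that a rise or a small fall lay within the error. *Npas2* (ENSMUSG00000026077, chr1:39193731-39363236), a relative of *Clock* used in its place in parts of the brain, had 0, 0, 1 and 0 reads in *Bbs8*+/+ and 2, 5, 4 and 0 reads in *Bbs8*-/- libraries. These counts were too low for the test, with 3 counts corresponding to 0.970 to 1.26 CPM in a library, and no difference could be measured at this depth.

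**Figure D1:**
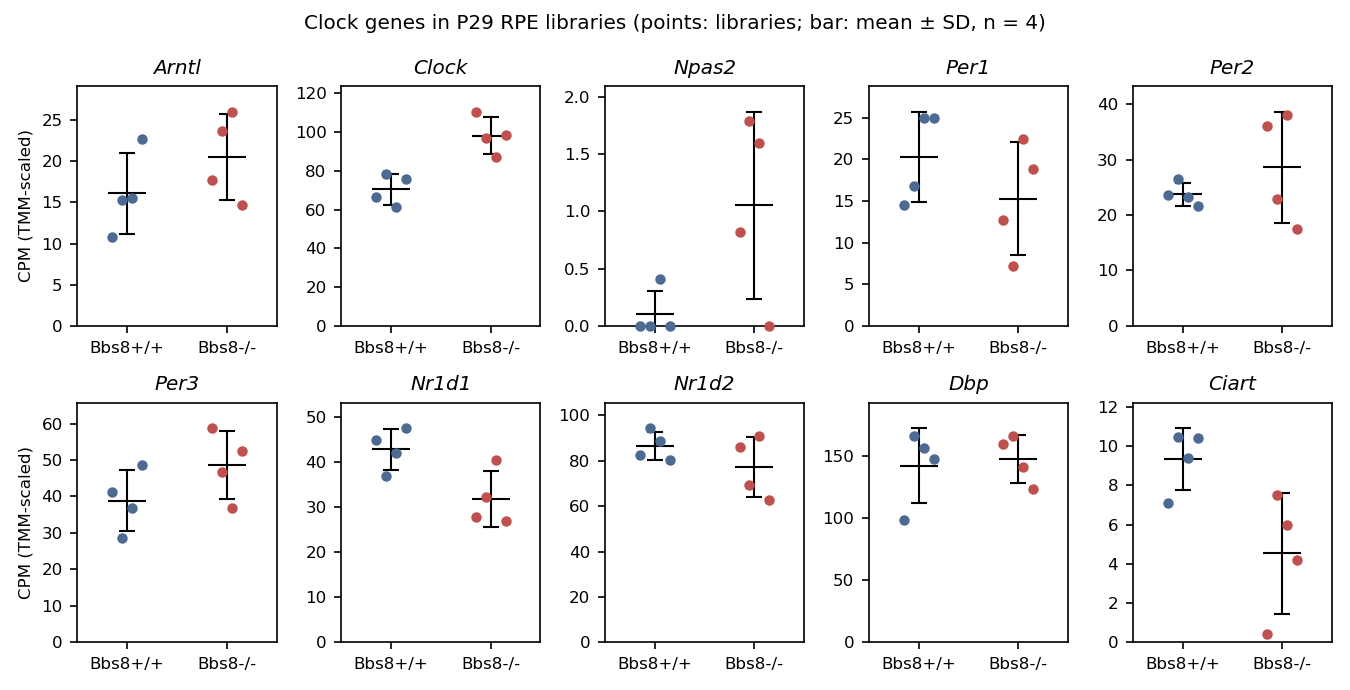
CPM of the 10 core clock genes in each library of *Bbs8*+/+ and *Bbs8*-/- RPE, 1 panel per gene with its own axis from 0; points are libraries, and the bar and whiskers give the mean and SD of 4. *Clock* is the only panel with a called difference and no overlap between genotypes (70.5 against 98.1 CPM), and the lowest *Ciart* point is *Bbs8*-/- replicate 1 at 0.411 CPM.

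None of the 3 period genes passed edgeR's test (0 at an unadjusted p below 0.05 and 0 by DESeq2), and their estimates did not share a direction. *Per1* (ENSMUSG00000020893, chr11:69095217-69109960), the period gene that also responds at once to light and to glucocorticoids, was at 14.6, 16.8, 24.9 and 24.9 CPM in *Bbs8*+/+ and at 12.7, 7.17, 22.4 and 18.9 CPM in *Bbs8*-/- libraries. Libraries of each genotype spread over a wide range and overlapped, and the log2 fold change was -0.41 (95% interval -1.03 to 0.21, edgeR adjusted p = 0.473). *Per2* (ENSMUSG00000055866, chr1:91415982-91459324), whose protein is a main part of the repressor complex, was at 23.7, 26.5, 23.3 and 21.6 CPM against 36.1, 22.9, 38.0 and 17.5 CPM. The *Bbs8*-/- libraries lay on both sides of the *Bbs8*+/+ libraries, 2 above all of them and 1 below all of them, and the log2 fold change was 0.26 (-0.23 to 0.76, adjusted p = 0.584). *Per3* (ENSMUSG00000028957, chr4:151003652-151044665), which is dispensable for the loop, was at 41.3, 28.7, 36.8 and 48.7 CPM against 58.7, 46.6, 36.8 and 52.4 CPM. Its log2 fold change was 0.32 (-0.07 to 0.71, adjusted p = 0.333), and 2 *Bbs8*-/- libraries lay above all *Bbs8*+/+ libraries.

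The REV-ERB genes did not pass either. *Nr1d1* (ENSMUSG00000020889, chr11:98767932-98775333), encoding REV-ERBα, the receptor that represses *Arntl*, was at 45.0, 36.9, 42.1 and 47.6 CPM in *Bbs8*+/+ and at 27.9, 32.2, 40.4 and 26.9 CPM in *Bbs8*-/- libraries. Of the *Bbs8*-/- libraries 3 lay below all *Bbs8*+/+ libraries and the remaining one lay among them. The means of 42.9 ± 4.57 and 31.9 ± 6.14 CPM (SD, n = 4) gave a log2 fold change of -0.43 (95% interval -0.83 to -0.03), with p = 0.0345 in edgeR's test, an adjusted p of 0.167 and a two-sided exact permutation p = 0.0571. The last 500 bases of *Nr1d1*, where QuantSeq reads fall, share 263 exon bases with *Thra*, the thyroid hormone receptor gene on the opposite strand, and the strand setting of the counting is not given in the sources used here. *Thra* had a log2 fold change of -0.19 (edgeR adjusted p = 0.286). *Nr1d2* (ENSMUSG00000021775, chr14:18204054-18239127), encoding REV-ERBβ, was at 82.6, 94.4, 88.7 and 80.3 CPM against 86.2, 69.5, 90.8 and 62.9 CPM. Only *Bbs8*-/- replicates 2 and 4 lay below the *Bbs8*+/+ libraries, and the log2 fold change was -0.16 (-0.45 to 0.12, adjusted p = 0.550).

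The output genes differed in how well they were measured. *Dbp* (ENSMUSG00000059824, chr7:45705088-45710203), a transcription factor that carries the rhythm to genes with D-boxes and cycles strongly in most tissues, was at 98.2, 166.0, 156.6 and 147.2 CPM in *Bbs8*+/+ and at 159.7, 165.5, 141.2 and 123.0 CPM in *Bbs8*-/- libraries. The genotypes lay on top of each other, apart from *Bbs8*+/+ replicate 1 below the rest. The fold change was 1.04 with a 95% interval of 0.864 to 1.25 (log2 fold change 0.06, edgeR adjusted p = 0.858), and its sign turned without *Bbs8*+/+ replicate 1 (-0.0874) and without *Bbs8*-/- replicate 2 (-0.00386). All of the last 500 bases of *Dbp* are shared with exons of *Sphk2* on the opposite strand, a lipid kinase gene with a log2 fold change of -0.12 (adjusted p = 0.855).

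*Ciart* (ENSMUSG00000038550, chr3:95878503-95882251), also known as CHRONO, encodes a repressor that binds BMAL1. It had 21, 28, 23 and 28 reads in *Bbs8*+/+ and 1, 21, 15 and 12 reads in *Bbs8*-/- libraries, or 7.11, 10.4, 9.40 and 10.4 CPM against 0.411, 7.52, 6.0 and 4.19 CPM. Of the *Bbs8*-/- libraries 3 lay below all *Bbs8*+/+ libraries and replicate 2 lay just above the lowest of them. The log2 fold change was -1.02 (SE 0.497, 95% interval -2.03 to -0.02), with p = 0.0467 in edgeR's test, an adjusted p of 0.204 and a two-sided exact permutation p = 0.0571. Leaving out 1 library at a time gave log2 fold changes from -1.38, without *Bbs8*-/- replicate 2, to -0.65, without *Bbs8*-/- replicate 1.

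Over the 9 clock genes tested, 1 rose (11.1%, against 12.3% of all genes that passed in either direction) and none fell. At an unadjusted p below 0.05 in edgeR's quasi-likelihood test, 1 was higher and 2 were lower, *Nr1d1* and *Ciart*. Of all 12889 genes tested, 1453 were higher and 1563 lower at that threshold. Both DESeq2 and edgeR's likelihood ratio test called 1 of the 9 clock genes higher and 0 lower. In direction, 5 estimates were above 0 and 4 below, and the median log2 fold change was 0.06, against 0.02 over all genes tested. *Clock* was the only one of the 9 without overlap between genotypes (1 of 9, against 16.0% of all genes). The share of clock genes that changed was thus not above that of all genes.

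Transcripts of *Arntl* and *Npas2* peak at other hours than those of *Nr1d1*, *Dbp* and *Ciart*, and a difference in the hour of collection would move these arms in opposite directions. The genes were therefore also set against each other as arms, the mean log2 CPM (with a prior count of 2) of the 3 activators minus that of the 7 other genes, in each library. This value was -2.00, -1.91, -1.89 and -1.88 in *Bbs8*+/+ and -0.93, -0.77, -1.12 and -1.51 in *Bbs8*-/- libraries. All *Bbs8*-/- libraries lay above all *Bbs8*+/+ libraries. With *Npas2* among the activators, the *Bbs8*-/- libraries were also spread more widely (SD 0.317 against 0.0544, n = 4). The means differed by 0.84 on the log2 scale. Of the arms themselves, the activators were at 3.31 ± 0.176 and 3.90 ± 0.368 and the other genes at 5.23 ± 0.123 and 4.98 ± 0.196 (SD, n = 4), so the activator mean was higher and the mean of the others lower in *Bbs8*-/- RPE. This is a description with no test, since the genes were named with earlier results of these libraries known. The arms also hold *Clock*, the *Per* genes and *Nr1d2*, which the expectation for the hour of collection given above does not name.

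The arm difference moved with the genes that entered it. Without *Clock* it was 0.90, and without *Ciart*, which had 1 read in *Bbs8*-/- replicate 1, it was 0.68. Without *Npas2*, which had at most 5 reads, it was 0.66, with libraries between -0.30 and 0.06 in *Bbs8*+/+ and between 0.34 and 0.69 in *Bbs8*-/-. The SD was then 0.172 in *Bbs8*+/+ and 0.176 in *Bbs8*-/- libraries, so the wider spread of the *Bbs8*-/- libraries was not seen without *Npas2*. With all 3 of these genes left out, *Arntl* against the remaining 6 genes differed by 0.43, and the libraries overlapped, from -1.88 to -1.11 in *Bbs8*+/+ and from -1.38 to -0.67 in *Bbs8*-/-. The mean of the 7 other genes differed by -0.25 with *Ciart* and by -0.08 without it. Among the core clock genes tested, *Dbp* had the most reads (290 to 462 a library) and the estimate nearest to no difference. Its sign turned with single libraries left out, and its 3′ end is shared with exons of *Sphk2*. The hour of collection itself was not tested.

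**Figure D2:**
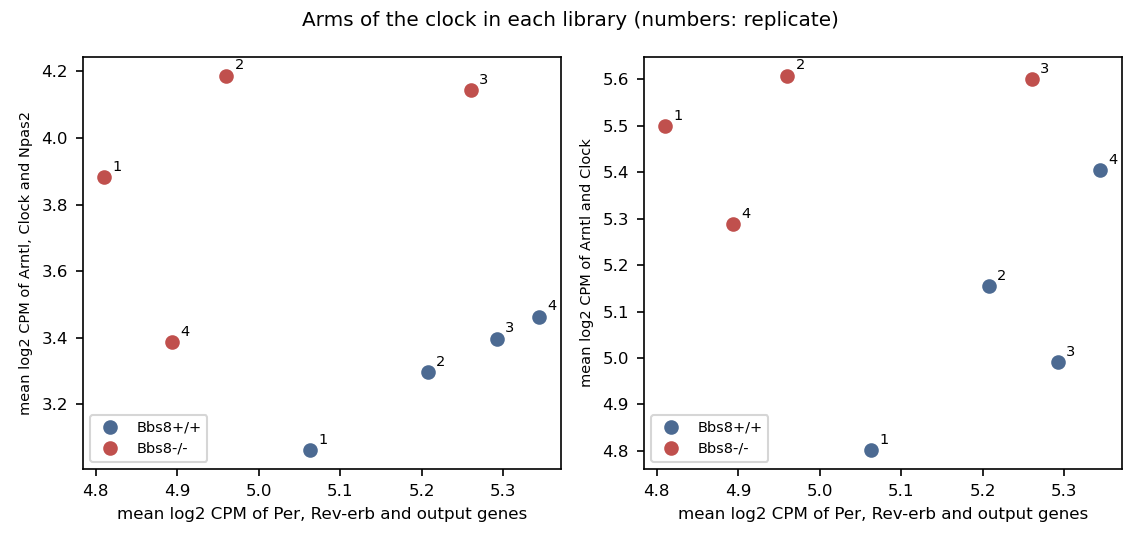
Each point is 1 library, numbered by replicate, with the mean log2 CPM of the 7 other clock genes on the horizontal axis and that of the activators on the vertical axis, for *Arntl*, *Clock* and *Npas2* on the left and for *Arntl* and *Clock* alone on the right. On the left the activators lie between 3.06 and 3.46 in *Bbs8*+/+ and between 3.39 and 4.19 in *Bbs8*-/- libraries, and on the right between 4.80 and 5.4 and between 5.29 and 5.61, so that the genotypes overlap on the vertical axis in both panels.

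Of 51 other genes known to act in or directly below the clock, 48 were tested, and 6 rose and 6 fell (25.0%, against 12.3% of all genes), with a median log2 fold change of -0.02. With library size alone as the scaling, 9 rose and 3 fell. Leaving out *Bbs8*-/- replicate 1 left 3 in each direction, and leaving out *Bbs8*+/+ replicate 4 left 3 that rose. Several of the genes that changed, such as *Rorb* and *Ncor1*, are also used outside the clock, and no test of the list as a whole was made.

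Products of ROR receptor genes activate *Arntl* at the element that REV-ERB proteins block, and *Rora* and *Rorb* fell. *Rorb*, whose product is also needed for rod development, fell from 655 to 361 CPM (log2 fold change -0.86, SE 0.0811, edgeR adjusted p = 1.53e-10), with 601 to 723 CPM in *Bbs8*+/+ and 338 to 377 CPM in *Bbs8*-/- libraries. *Rora* fell from 487 to 368 CPM (-0.40, SE 0.0858, adjusted p = 7.84e-04), again with no overlap between genotypes. *Ncor1*, the corepressor through which REV-ERB proteins act, fell from 563 to 381 CPM (-0.56, adjusted p = 2.67e-06), and its partner deacetylase *Hdac3* rose from 11.7 to 21.9 CPM (0.92, adjusted p = 0.0360). *Rack1*, a scaffold gene whose product binds BMAL1 and protein kinase C, fell (-0.33, adjusted p = 0.0189). In the same libraries 19 of the 29 rod and cone markers fell and 6, all cone genes, rose, and their part in the values of *Rorb* and *Rora* was not tested.

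The cryptochromes, the other subunits of the repressor complex, did not pass the test. *Cry1* lay at 32.7 to 42.3 CPM in *Bbs8*+/+ and 26.0 to 33.7 CPM in *Bbs8*-/- libraries (log2 fold change -0.36, 95% interval -0.76 to 0.05, edgeR adjusted p = 0.286). *Cry2* lay at 34.5 to 43.9 and 31.9 to 39.8 CPM (-0.10, -0.48 to 0.29, adjusted p = 0.828). Of the genes that control the stability of these proteins, *Usp2*, a deubiquitinase with a strong daily rhythm in many tissues, fell from 157 to 118 CPM (-0.40, adjusted p = 0.0245). Among 10 kinase and phosphatase genes of the clock, *Gsk3a* fell (-0.60, adjusted p = 0.0221) and the other 9 did not pass, *Csnk1d* among them (0.21, adjusted p = 0.335). That share of 10% was not above the 12.3% of all genes that passed in either direction.

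*Bhlhe40*, encoding DEC1, a repressor that competes for E-boxes, rose from 61.9 to 95.1 CPM (log2 fold change 0.62, SE 0.146, edgeR adjusted p = 0.00254), and its relative *Bhlhe41* was close to no difference (-0.02, adjusted p = 0.959). Of the factors that share the D-box with DBP, *Hlf* rose from 128 to 163 CPM (0.35, adjusted p = 0.0324), while *Tef* had an estimate of -0.21 (-0.41 to -0.01, adjusted p = 0.171). *Nfil3*, which represses at the D-box and is known to peak opposite to *Dbp*, was at 5.42, 2.61, 6.54 and 5.20 CPM in *Bbs8*+/+ and at 11.5, 7.52, 11.6 and 8.74 CPM in *Bbs8*-/- libraries. The *Bbs8*-/- libraries all lay higher, but with few reads the log2 fold change of 0.99 (0.11 to 1.87) did not pass the test (adjusted p = 0.151). Of 10 further cycling output genes tested, 2 rose, against 5.46% of all genes. These were *Mtss1* (0.52, adjusted p = 1.90e-04) and *Dtx4* (1.40, adjusted p = 0.0375). None fell by edgeR's test, at an unadjusted p below 0.05 (0 genes) or by DESeq2 (0 genes).

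**Figure D3:**
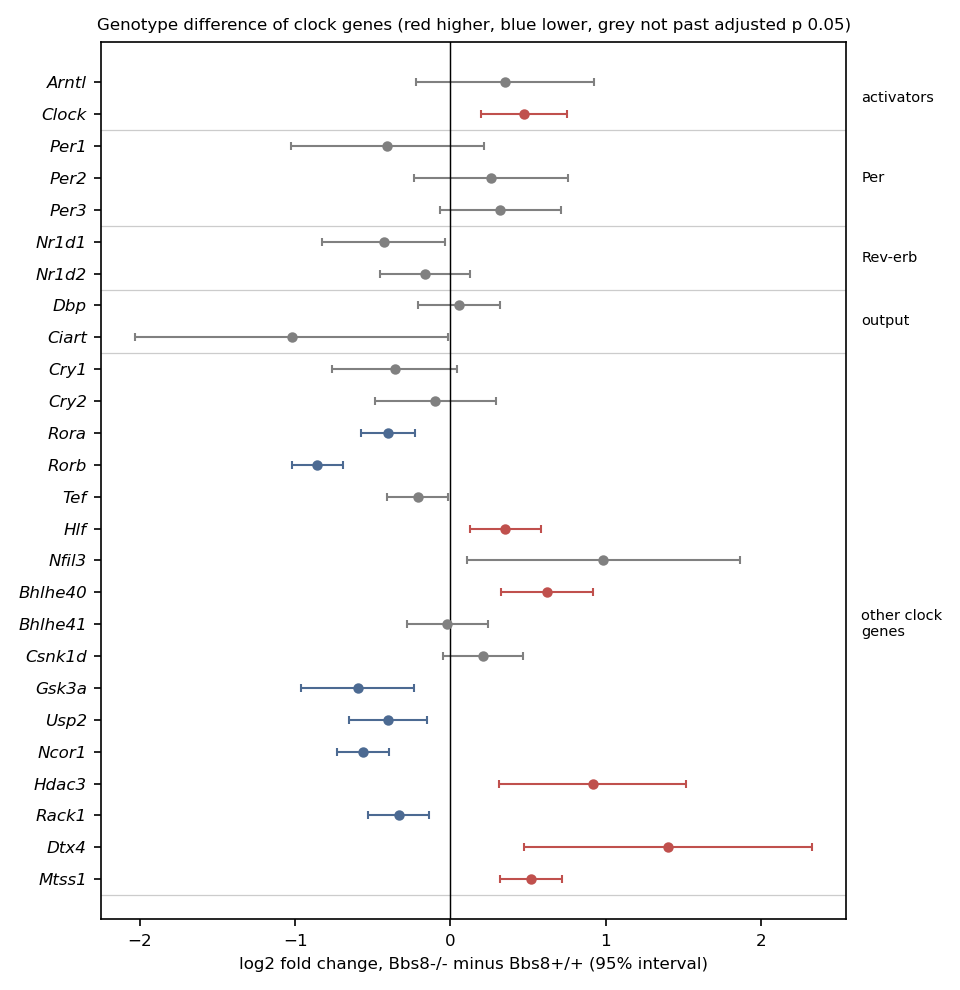
Log2 fold changes (*Bbs8*-/- minus *Bbs8*+/+) with 95% intervals for the 9 clock genes tested and, of the 48 other clock genes, those described in the text; red marks genes that rose, blue those that fell and grey those not past an adjusted p of 0.05. The interval of *Dbp* lies closely around 0 (-0.21 to 0.32), and the narrow intervals of *Rorb* and *Rora* lie wholly below 0.

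Of 6 genes known for a daily rhythm in the retina, 4 were tested, and 3 fell and none rose (0 higher at an unadjusted p below 0.05 and by DESeq2), against 6.80% of all genes that fell. *Drd4*, the dopamine receptor gene of photoreceptors whose transcript peaks at night, fell from 137 to 84.6 CPM (log2 fold change -0.70, edgeR adjusted p = 8.15e-05). *Adcy1*, the adenylyl cyclase gene, fell from 182 to 135 CPM (-0.44, adjusted p = 0.00441), and *Pdc*, which binds transducin, fell from 4412 to 2131 CPM (-1.05, adjusted p = 7.77e-18). All 3 are expressed in photoreceptors, and in the same libraries 19 of the 29 rod and cone markers fell and 6 rose. The part of photoreceptor RNA in the values of these 3 genes was not tested. *Aanat*, the enzyme gene of melatonin synthesis, was below 9 CPM in 7 libraries and at 20.9 CPM in *Bbs8*-/- replicate 1 (0.94, -0.20 to 2.08, adjusted p = 0.334).

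Immediate early genes respond within minutes to light, handling or stress, as *Per1* does. Of 24 listed, 22 were tested, and 8 rose, 14 did not pass and none fell (0 lower at an unadjusted p below 0.05 and by DESeq2), against 5.46% of all genes that rose. *Fos*, which encodes a subunit of AP-1, was at 218, 258, 273 and 242 CPM in *Bbs8*+/+ and at 547, 481, 497 and 471 CPM in *Bbs8*-/- libraries (log2 fold change 1.01, SE 0.0892, edgeR adjusted p = 2.76e-11). All *Bbs8*-/- libraries lay far above the *Bbs8*+/+ libraries. *Klf6*, a zinc finger factor gene, rose from 48.3 to 113.7 CPM (1.23, adjusted p = 2.31e-08), and *Nr4a1*, an orphan nuclear receptor gene, from 35.2 to 64.3 CPM (0.88, adjusted p = 0.00307). *Fosb*, *Jun*, *Junb*, *Egr1* and *Ccn1* rose by 0.34 to 0.73. *Per1* had an estimate of the opposite sign (-0.41) whose interval reached 0.21. The summed level of the list was 1766 to 1950 CPM in *Bbs8*+/+ and 2635 to 2814 CPM in *Bbs8*-/- libraries, and its part in the values of the clock genes was not tested.

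**Figure D4:**
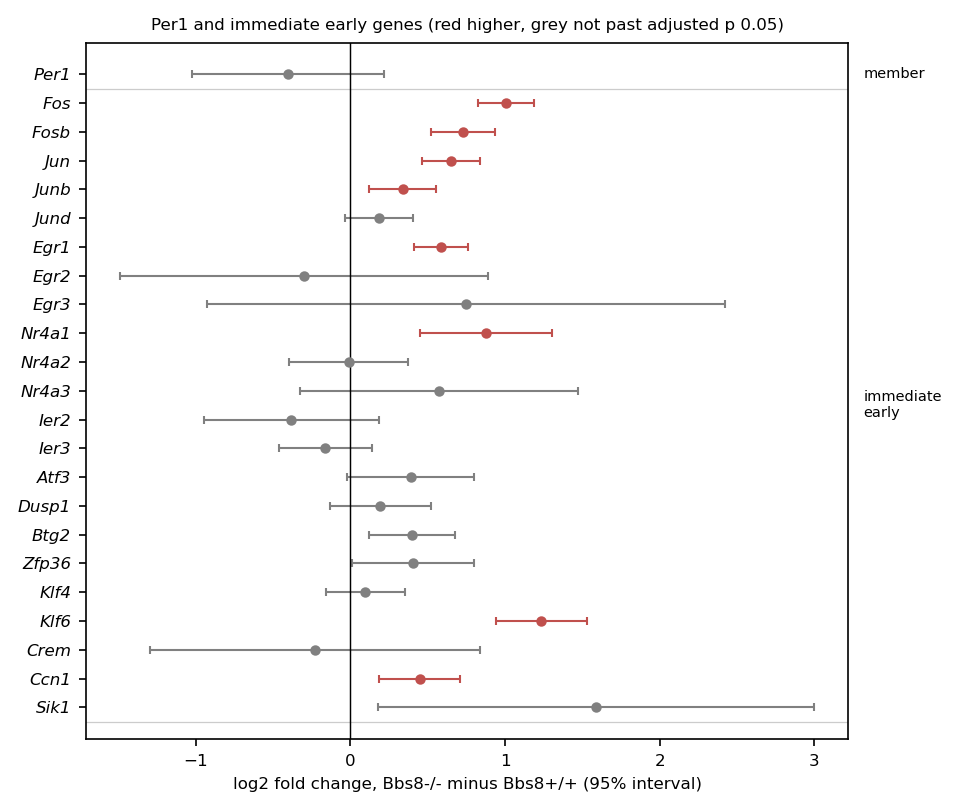
Log2 fold changes (*Bbs8*-/- minus *Bbs8*+/+) with 95% intervals for *Per1* and the 22 immediate early genes tested; red marks genes past an adjusted p of 0.05. The 8 red genes lie to the right of 0, with *Klf6* (1.23) and *Fos* (1.01) the farthest, whereas *Per1* lies at -0.41.

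Genes induced by glucocorticoids, hormones that also reset peripheral clocks and induce *Per1*, moved in both directions. Of 15 listed, 14 were tested, and 3 rose and 1 fell, against 5.46% and 6.80% of all genes. The metallothionein genes *Mt1* (log2 fold change 0.59, edgeR adjusted p = 6.59e-12) and *Mt2* (0.97, adjusted p = 2.96e-10), which also respond to metals, rose, as did the kinase gene *Sgk1* (0.28, adjusted p = 0.0202). *Klf9* fell from 349 to 254 CPM (-0.46, adjusted p = 0.00282). *Fkbp5*, a widely used readout of the glucocorticoid receptor, was at 7.11 to 18 CPM in *Bbs8*+/+ and 6.98 to 8.80 CPM in *Bbs8*-/- libraries (-0.77, 95% interval -1.50 to -0.04, adjusted p = 0.179), and *Tsc22d3*, encoding GILZ, was close to no difference (-0.06, adjusted p = 0.904).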

How the data were processed

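RNA of RPE from 4 *Bbs8*+/+ and 4 *Bbs8*-/- mice at P29 was measured in 8 QuantSeq 3′ libraries, each prepared from 30 ng of RNA. The authors deposited raw counts per gene and library, made with htseq-count on Ensembl gene models from trimmed reads that STAR had aligned to mm10. Reads aligned to several places made up 32.8% to 34.5% of the entries, reads in no gene 17.0% to 20.6% and ambiguous reads 0.244% to 0.296%, and these were left out of the library sizes. The strand setting of the counting is not given in the sources used here.

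Genes were named from the GENCODE annotation of GRCm38, the build also called mm10, and 30934 of 31053 identifiers had a name. R 4.3.3 and edgeR 4.0.16 were used. A gene entered the fit when 4 or more of the 8 libraries reached 1 CPM, libraries were scaled by TMM, and genotypes were compared with the quasi-likelihood test, two-sided, with p-values adjusted over all 12889 genes and a threshold of 0.05. Single genes were also compared with an exact permutation test of their log2 CPM, with a prior count of 2. DESeq2 1.42.0, limma 3.58.1 (for edgeR), other scalings, filters and left-out libraries served as alternatives. The fit was tested on simulated data. It called 20 of 96 genes changed by 0.5 on the log2 scale (20.8%) and 50 of 92 changed by 1 (54.3%). A gene that did not pass may thus still differ by such an amount. Promoter windows were taken from RefSeq on GRCm38.p6.

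The 10 genes, the lists of other genes and the rule for naming genes were chosen with earlier results of these data known. The rule names all 10 genes, *Ttc8*, the genes past the threshold in each clock-related list, 9 clock genes fixed by name (*Cry1*, *Cry2*, *Rora*, *Rorb*, *Nfil3*, *Tef*, *Bhlhe40*, *Bhlhe41* and *Csnk1d*), genes that overlap one of the 10, and up to 3 of the most abundant genes of a marker list. *Aanat*, *Fkbp5*, *Tsc22d3* and *Noct* fall outside it and were named after their values were seen. Some genes that the rule names are not reported here. Same-numbered libraries of the 2 genotypes did not deviate together (r across genes between -0.03 and 0.01). This gave no sign that the numbers pair the animals, but a low r cannot exclude a pairing. Depth sets the precision: 3 counts, taken as the limit that a count of 0 allows, equal 0.970 to 1.26 CPM, which covers counting error only. No 2 libraries of a genotype were alike within sampling noise (chi-square per degree of freedom 2.83 to 7.04).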

Additional observations from a re-analysis of the deposited data

Results flagged for a closer look

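In the *Bbs8*+/+ or *Bbs8*-/- group, 8 of 110 sets of 4 values, from 55 genes and summed marker levels, held a library far from the other 3, where chance alone gives about 1 in 20 sets. None was a core clock gene. The criterion was a gap to the nearest other library of more than Dixon's 95% critical value, taken as a share of the range of the group.

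Among the clock-related genes, *Usp2* was at 88.3 CPM in *Bbs8*-/- replicate 1, with 124 to 130 CPM in the others, and *Mtss1* was at 170 CPM in *Bbs8*+/+ replicate 3, with 159 CPM in the others. *Pdc* was at 4056 CPM in *Bbs8*+/+ replicate 1, with 4520 to 4539 CPM in the others. Among immediate early and glucocorticoid genes, *Junb* was at 164 CPM in *Bbs8*-/- replicate 1 (201 to 204 CPM in the others), *Klf6* at 36.6 CPM in *Bbs8*+/+ replicate 2 (51.5 to 53.5 CPM) and *Klf9* at 275 CPM in *Bbs8*+/+ replicate 1 (365 to 380 CPM). *Thra*, which overlaps *Nr1d1*, was at 171 CPM in *Bbs8*-/- replicate 3, with 212 to 215 CPM in the others, and *Nr1d1* was highest of the *Bbs8*-/- libraries in that same replicate. The lens markers summed to 529 CPM in *Bbs8*-/- replicate 3, with 483 to 490 CPM in the others. No cause was tested.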

How the results depend on the processing

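The log2 fold changes of *Arntl*, *Per1*, *Per2*, *Per3*, *Nr1d1*, *Nr1d2* and *Ciart* kept their sign and did not pass the threshold under any of the 16 alternatives of the fit. *Clock* kept its sign, with adjusted p between 0.00336 and 0.0684, and was called in all but 2 of them, so the number of clock genes that rose was 0 to 1 with single libraries left out. *Dbp* turned to -0.0874 without *Bbs8*+/+ replicate 1 and to -0.00386 without *Bbs8*-/- replicate 2, within a range of -0.0874 to 0.14 with single libraries left out. Of the other clock genes, 3 to 6 rose and 3 to 7 fell with single libraries left out, and 3 fell (9 rose) with library size alone as the scaling. The arm difference was 0.74 to 0.98 with single libraries left out, 1.18 with a prior count of 0.5, and 0.43 without *Npas2*, *Clock* and *Ciart*, which together with the versions without *Npas2* (0.66), without *Ciart* (0.68), and without *Dbp* and *Nr1d1* (0.87) was chosen after seeing the data. With the replicate number as a block, *Clock* had a log2 fold change of 0.48 (edgeR adjusted p = 0.0217), 650 genes rose and 827 fell, none of the 9 core clock genes tested changed its call, and 5 of the other clock genes rose and 6 fell. The causes of these shifts were not tested. Depth limits *Npas2* and *Ciart* most, with counting errors at the mean count of 23.2% for *Ciart*, 14.6% for *Per1* and 14.4% for *Arntl*, against 6.67% for *Clock*. The p-values of edgeR rest on the spread between 4 animals of each genotype, estimated for each gene with information shared across genes.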

Other observations

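The clock genes also differed in how far the libraries of one genotype spread. In *Bbs8*+/+ libraries the coefficient of variation was lowest for *Nr1d2* (7.33%) and *Per2* (8.58%) and highest for *Arntl* (30.4%). In *Bbs8*-/- libraries it was 17.2% for *Nr1d2*, 35.0% for *Per2*, 44.0% for *Per1* and 67.7% for *Ciart*, against 26.7% and 16.7% for the last 2 in *Bbs8*+/+. It was lower in *Bbs8*-/- libraries for *Arntl* (25.5%), *Clock* (9.72% against 11.3%), *Per3* (19.1% against 21.5%) and *Dbp* (13.1% against 21.3%). The difference in spread was not tested.

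The library that was highest or lowest was counted for each of the 9 genes tested. *Bbs8*-/- replicate 4 was the lowest of its group for 5 of the 9 genes and the highest for none, and replicate 3 was the highest for 5. Among *Bbs8*+/+ libraries, replicate 2 was the highest for 5 of the 9 and replicate 1 the lowest for 4 and the highest for none. These counts are a description with no test.

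*Noct*, a deadenylase gene with a strong night peak in many tissues, was at 3.72, 5.97, 8.99 and 4.46 CPM in *Bbs8*+/+ and at 14.4, 10.7, 16.0 and 9.43 CPM in *Bbs8*-/- libraries. All *Bbs8*-/- libraries lay higher, and the log2 fold change was 1.13 (95% interval 0.33 to 1.93, edgeR adjusted p = 0.0556). *Camta1*, which overlaps *Per3* on the same strand without sharing exon bases, had an estimate of -0.34 on the log2 scale (adjusted p = 0.132).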
